A study of Mus musculus with 4 samples.

Results

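The D-type cyclins, the kinases they activate and the retinoblastoma (Rb) family were followed across 5481 cultured mouse myoblasts and young myocytes, ordered by how much Myog and how much Mki67 plus Top2a each cell expressed. The members are 8 genes taken by symbol: Ccnd1, Ccnd2, Ccnd3, Cdk4, Cdk6, Rb1, Rbl1 and Rbl2, or 8 of the 32285 gene entries in each count matrix. All 8 had UMIs in every matrix. Muscle stem cells (satellite cells) came from skeletal muscle of mice carrying the MyoD-KI allele, in which a tdTomato reporter marks expression of Myod1. They were kept in a serum-rich growth medium for 5 days, and cells with high reporter signal were sorted by flow cytometry for droplet-based sequencing of 3′ transcript ends in single cells. Every sample shares this genotype, treatment and gate, so there is 1 group, with labels for 4 replicates. The number of animals, their age and sex and the zygosity of the allele are not given in the sources used here, and cells with low reporter signal were not analysed here.

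The 4 matrices hold the same cells, and each is called a library here. Whether they are separate preparations or sequencing runs of 1 preparation is not given in the sources used here. Each pair shared 99.9% of the barcodes of its smaller member, and between 99.4% and 99.9% of 1000 cells correlated best with their own barcode in the other library. The matrices were therefore treated as 1 sample measured 4 times, and no test between cells was run. Agreement between libraries is thus agreement of repeat measurements of the same cells. Levels are in CPM, the UMIs (unique molecular identifiers, 1 per captured transcript) of a gene per 1000000 UMIs summed over a set of cells, computed in each library and averaged. Intervals are exact 95% intervals at the mean count of 1 library and cover counting error only; variation between cultures or animals was not measured. The libraries held between 62627341 and 68898900 UMIs, and the kept cells had median depths of 10369 to 11382 UMIs. All 8 muscle markers examined were detected (Myod1 at 507 CPM, Des at 1170 CPM), whereas the 4 fibroblast, 4 immune, 3 endothelial and 2 adipocyte markers were each below 1 CPM. A pericyte marker, Abcc9, reached 11.7 CPM and was the highest of the markers of other cell types.

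Cells were called non-dividing below 75 CPM of Mki67 plus Top2a (3015 cells, 55.0%) and dividing from 150 CPM (2126 cells, 38.8%), and the 340 cells between were left out. Both genes mark G2 and mitosis more than G1 and early S phase, so the non-dividing class can hold G1 cells of a cycling population as well as cells that had left the cycle. Myog, a transcription factor switched on when a myoblast commits to differentiation, gave 5 bins: below 100, 100 to 500, 500 to 2000, 2000 to 5000, and 5000 CPM or more. The bins held 628, 302, 362, 1123 and 600 non-dividing cells and 1111, 420, 315, 257 and 23 dividing cells. The bin of 23 cells was too small to read alone and was joined to its neighbour for ratios. How well transcripts of different genes are captured was not measured, so no order between members is read from their levels. Sums and shares within a family count UMIs and are compared between groups of cells.

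In the canonical pathway, D-type cyclins are induced by growth factors and bind Cdk4 or Cdk6. The complexes phosphorylate the pocket proteins pRb, p107 and p130, encoded by Rb1, Rbl1 and Rbl2, which otherwise hold back E2F transcription factors and with them the genes of DNA replication. In muscle, pRb is known for its role in lasting cell cycle exit and in late muscle gene expression, and cyclin D3 is known as the D cyclin that stays present in differentiating myotubes. p107 is itself encoded by a classic E2F target gene.

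Promoter windows, the 250 bases before a RefSeq transcription start, were at hand for 5 of the 8 members (RefSeq, GRCm38.p6). They are shown for Rbl1, whose level differed most between dividing and non-dividing cells, for both kinases, which parted at high Myog, and for the 2 starts of Ccnd3, the cyclin that kept its level. Capitals mark matches to 4 motifs that were searched on both strands: the E2F motif (TTTCCCGC, TTTCGCGC, TTTGCCGC or TTTGGCGC), the Myc-type E-box CACGTG, the muscle-type E-box CAGCTG and the cell cycle element CHR (TTTGAA or TTCGAA). No match overlapped another.
Rbl1, chr2:157204535-157204784, minus strand: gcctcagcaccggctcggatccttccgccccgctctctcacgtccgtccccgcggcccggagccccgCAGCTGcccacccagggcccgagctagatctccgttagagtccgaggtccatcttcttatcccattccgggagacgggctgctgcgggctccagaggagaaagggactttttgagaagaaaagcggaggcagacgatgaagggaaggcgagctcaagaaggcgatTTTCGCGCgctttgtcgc
Cdk4, chr10:127063285-127063534, plus strand: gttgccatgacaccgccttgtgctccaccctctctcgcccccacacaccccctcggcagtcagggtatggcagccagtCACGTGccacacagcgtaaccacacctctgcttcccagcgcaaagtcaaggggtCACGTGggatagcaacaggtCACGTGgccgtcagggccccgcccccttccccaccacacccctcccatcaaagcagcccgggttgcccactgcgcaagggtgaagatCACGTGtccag
Cdk6, chr5:3343643-3343892, plus strand: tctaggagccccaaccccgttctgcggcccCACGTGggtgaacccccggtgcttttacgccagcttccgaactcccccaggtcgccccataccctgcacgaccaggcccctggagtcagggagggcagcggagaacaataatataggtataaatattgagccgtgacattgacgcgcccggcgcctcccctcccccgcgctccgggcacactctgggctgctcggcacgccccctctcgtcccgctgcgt
Ccnd3 upstream start, chr17:47504801-47505050, plus strand: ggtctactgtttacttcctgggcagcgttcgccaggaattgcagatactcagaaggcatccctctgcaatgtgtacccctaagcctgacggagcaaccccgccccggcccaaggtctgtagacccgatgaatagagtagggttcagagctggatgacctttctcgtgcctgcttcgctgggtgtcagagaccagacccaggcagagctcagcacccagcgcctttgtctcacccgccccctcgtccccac
Ccnd3 downstream start, chr17:47593217-47593466, plus strand: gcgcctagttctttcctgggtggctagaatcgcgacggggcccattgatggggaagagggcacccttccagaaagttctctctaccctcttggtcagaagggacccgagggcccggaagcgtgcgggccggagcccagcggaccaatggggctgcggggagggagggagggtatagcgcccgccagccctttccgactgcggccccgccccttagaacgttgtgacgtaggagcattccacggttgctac
Rbl1 had an E2F motif 18 to 11 bases before its start, a motif found in 1.86% of 32851 mouse windows of this length. It also had a CAGCTG 183 to 178 bases before the start, as did 13.0% of windows. Cdk4 had 4 copies of CACGTG, starting 172, 118, 98 and 11 bases before its start; 6.02% of windows had at least 1 copy and 0.0213% had 4 or more. Cdk6 had 1 copy, and neither Ccnd3 window held any of the 4 motifs. CHR, present in 17.1% of windows, matched in none of those shown and once in the Rbl2 window, on the minus strand 201 to 196 bases before the start. These matches describe the letters of the windows and say nothing of what binds there in these cells.

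Over all kept cells Ccnd1 stood at 170.5 CPM, Ccnd2 at 17.1 CPM and Ccnd3 at 330.1 CPM. The kinases Cdk4 and Cdk6 stood at 242 and 32.1 CPM. Rb1, Rbl1 and Rbl2 had levels of 133, 15.1 and 10.98 CPM. The 4 libraries lay close together for the abundant members, with Ccnd3 between 329.5 and 330.7 CPM, and less so for rare ones such as Rbl2, between 10.6 and 11.6 CPM.

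**Figure D1:**
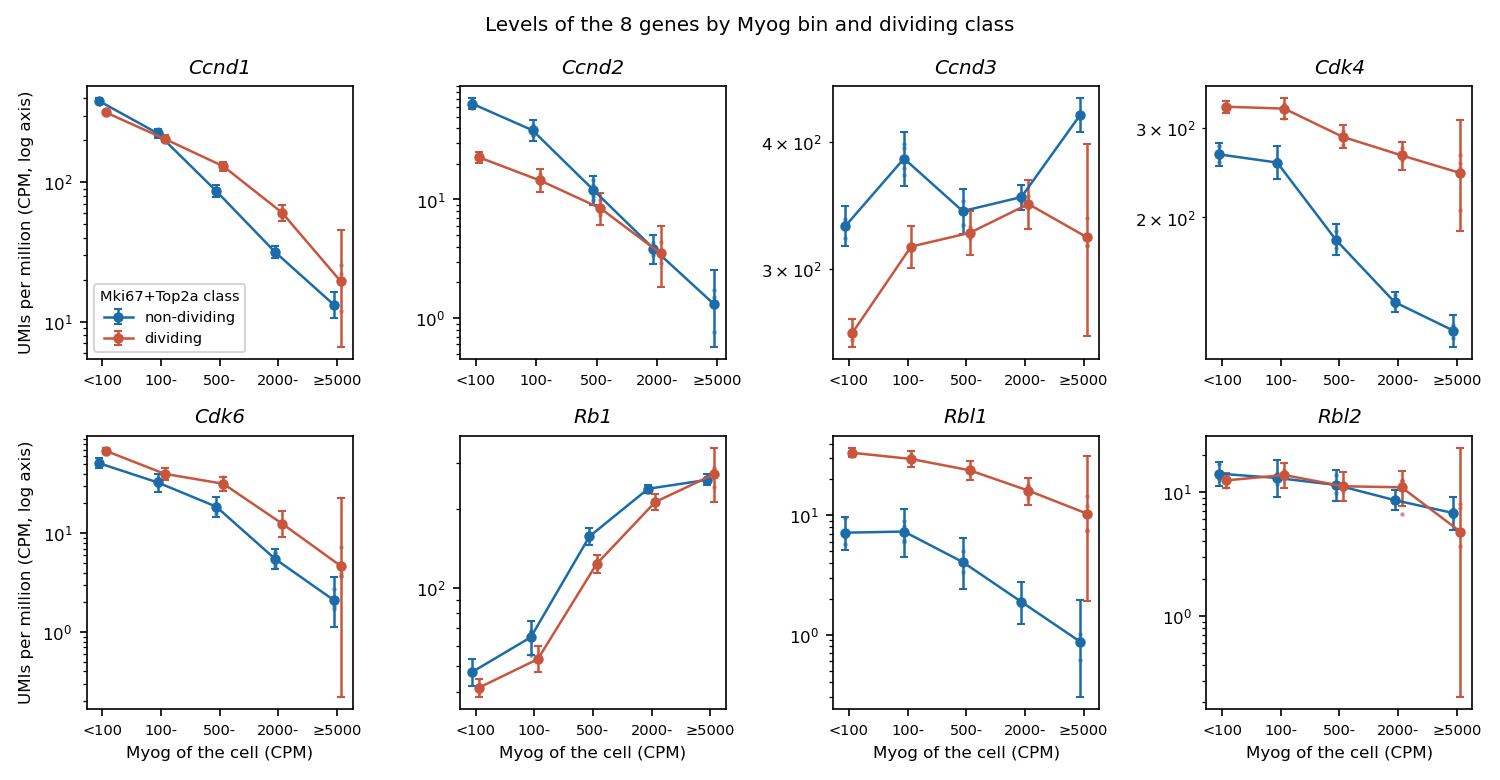
Level of each of the 8 genes (CPM, log axis) in 5 bins of Myog, for non-dividing (blue) and dividing (red) cells; large points are means of the 4 libraries, small points single libraries, bars exact 95% Poisson intervals of 1 library. Ccnd1, Ccnd2 and Cdk6 go down and Rb1 goes up with Myog in both classes, while Rbl1 separates the classes in the first 4 bins; Ccnd2 in the dividing cells of the highest bin is 0 and cannot be drawn on a log axis.

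To ask how the family differs between undifferentiated and committed cells outside the dividing class, non-dividing cells with Myog of at least 5000 CPM (600 cells, Myog 6332 CPM) were compared with those below 100 CPM (628 cells, Myog 37.7 CPM). Ccnd1, Ccnd2 and Cdk6 fell 16.8- to 28.5-fold, Cdk4 and Rbl2 fell 2.21- and 1.93-fold, Rb1 rose 5.36-fold and Ccnd3 stayed within 1.5-fold. A gene was called here at a mean ratio of 1.5-fold or more, on CPM plus 1, with the same sign in every library, and was examined only with at least 50 UMIs per library over both sides. By that rule 1 of the 7 examined members was higher and 5 were lower, against 13.1% higher and 40.0% lower among 9696 genes. Lower calls are thus common in this comparison, and the median gene had a log2 ratio of -0.38. Rescaling by TMM factors, edgeR's weighted trimmed mean of ratios, brings this median to 0.04 and turns 1272 higher and 3881 lower genes into 2346 and 2484.

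Ccnd1 encodes cyclin D1, the D cyclin most directly driven by mitogens, and lies at chr7:144929931-144939925 on the minus strand (GENCODE M21 on GRCm38, as for all genes below). In the 4 libraries it stood at 380, 384, 383 and 380.3 CPM in the Myog-low cells. In the Myog-high cells it stood at 12.7, 13.8, 13.4 and 13.3 CPM. The sides are far apart in every library, and the ratio was 26.8-fold (log2 -4.74, interval -5.05 to -4.45). The bins between stepped down without a break, at 224, 86.4 and 31.7 CPM. Only 0.278% of the genes examined had a lower ratio or the same.

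Ccnd2 encodes cyclin D2 and lies at chr6:127125162-127152193 on the minus strand. It stood at 70.5, 61.9, 64.8 and 59.4 CPM in the Myog-low cells and at 1.24, 0.768, 1.73 and 1.52 CPM in the Myog-high cells. No library of either side came near the other, and the ratio was 28.5-fold (log2 -4.83, interval -5.39 to -4.18). The Myog-high value rests on 8.25 UMIs per library, so it carries a wide interval. Ccnd2 therefore ran with Ccnd1 along Myog in these cells, at 38.3, 12.1 and 3.86 CPM in the bins between.

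Ccnd3 encodes cyclin D3 and lies at chr17:47505051-47599691 on the plus strand. Its level was 334, 335.5, 331 and 322 CPM in the Myog-low cells and 427, 424, 423 and 425 CPM in the Myog-high cells. All 4 libraries were higher in the Myog-high cells, but the log2 ratio of 0.36 (interval 0.28 to 0.45), or 1.28-fold, was under the size that was called. Scaled by TMM or median-ratio factors, the ratio was 0.80 or 0.82 and Ccnd3 counted as higher. It was thus steady in share of all UMIs and higher relative to the median gene. In neither scale did it go the way of Ccnd1 and Ccnd2.

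Cdk4, at chr10:127063534-127067920 on the plus strand, encodes the kinase partner of all 3 D cyclins. It stood at 257, 261, 276 and 270.3 CPM in the Myog-low and at 119, 116, 122 and 123 CPM in the Myog-high cells. The sides did not overlap, with a 2.21-fold lower level at high Myog (log2 -1.14, interval -1.27 to -1.02). Under TMM scaling the ratio was -0.71 and still called. Cdk6, the other D-cyclin kinase, at chr5:3341485-3531008 on the plus strand, stood at 49.5, 49.5, 54.0 and 51.0 CPM against 2.17, 1.84, 1.73 and 2.70 CPM. Its 16.8-fold lower level (log2 -4.07, interval -4.64 to -3.48) put it near Ccnd1 and Ccnd2 and far from Cdk4.

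Rb1 encodes pRb and lies at chr14:73183673-73325822 on the minus strand, where the annotated Gm17233 and Mir687 overlap it on the same strand. It stood at 46.4, 48.3, 46.7 and 48.8 CPM in the Myog-low cells. In the Myog-high cells it stood at 261, 254, 261.5 and 259.9 CPM. Every library showed a rise of more than 5-fold, with a mean of 5.36-fold (log2 2.42, interval 2.24 to 2.61), and 96.8% of examined genes had a lower ratio or the same. The largest step lay between the bin of 100 to 500 CPM (64.7 CPM) and that of 500 to 2000 CPM (157 CPM).

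The relatives of pRb went the other way. Rbl2, which encodes p130, the pocket protein known from resting cells, lies at chr8:91070057-91123844 on the plus strand. It stood at 13.6, 13.0, 12.7 and 16.9 CPM against 7.27, 7.07, 6.45 and 6.25 CPM, a 1.93-fold lower level (log2 -0.95, interval -1.45 to -0.45). The libraries did not overlap, but the log2 ratio was -0.56 under TMM scaling and -0.54 under median-ratio scaling, and the call was lost there. Rbl1, at chr2:157145893-157204534 on the minus strand, was too rare to be examined, with 41.8 UMIs per library in the Myog-low and 5.5 in the Myog-high cells. Its levels were 7.16 and 0.874 CPM, with a log2 ratio of -2.11 (interval -2.73 to -1.33) given as a description.

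**Figure D2:**
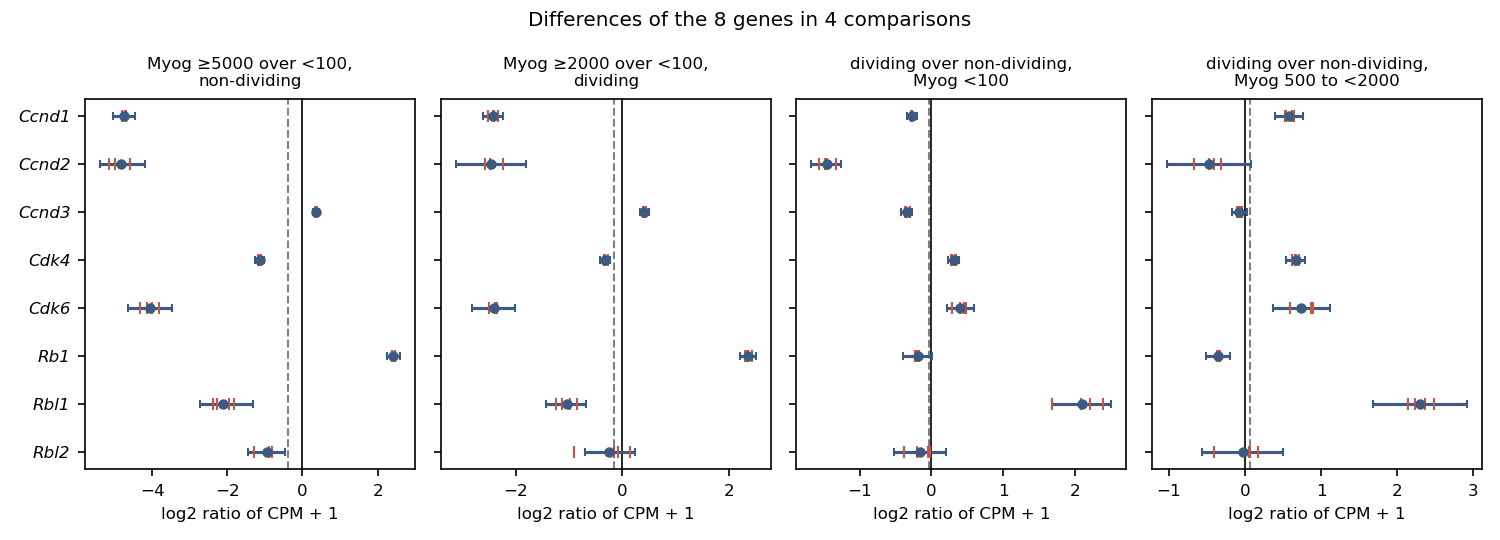
Log2 ratio of CPM plus 1 for the 8 genes in 4 comparisons; points are means of 4 libraries, bars 95% counting intervals, red ticks single libraries, and the dashed line is the median of all genes examined. Rb1 alone lies above 2 in both Myog comparisons, and Rbl1 alone lies above 2 in both comparisons of dividing with non-dividing cells.

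Myog was also present in cells that were dividing, which allows the same contrast inside the cycle. Dividing cells with Myog of at least 2000 CPM (280 cells) were compared with dividing cells below 100 CPM (1111 cells). Rb1 was again higher, and Ccnd1, Ccnd2, Cdk6 and Rbl1 were lower; 1 of 8 members was higher and 4 were lower, against 9.43% and 21.7% of 10773 genes. Median-ratio scaling moved the median gene from -0.15 to -0.02, with 1289 genes higher and 1780 lower in place of 1016 and 2333. Median depth was 11604 and 12689 UMIs on the 2 sides. No doublet caller was run, and a part of doublets in the Myog-expressing dividing cells was not tested. Rb1 had log2 ratios of 2.37, 2.31, 2.43 and 2.33 in the libraries, from 41.5 to 217 CPM, or 5.14-fold. The ratio in non-dividing cells was 2.42, and the difference between both was not tested.

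Among the cyclins of dividing cells, Ccnd1 stood at 315.5 CPM below 100 CPM of Myog and at 57.8 CPM from 2000 CPM. Its ratios of -2.35, -2.53, -2.44 and -2.41 amount to a 5.39-fold lower level. Ccnd2 went from 22.6 to 3.27 CPM, 5.57-fold lower (log2 -2.48, interval -3.14 to -1.82). Ccnd3 went from 259 to 345.5 CPM in the opposite direction, with log2 ratios of 0.40, 0.43, 0.44 and 0.39, a size that was not called. The 3 cyclins therefore took the same directions as in non-dividing cells, with smaller ratios for Ccnd1 and Ccnd2 over a smaller span of Myog. Between the lowest bin and that of 2000 to 5000 CPM, Ccnd1 went from 381.8 to 31.7 CPM in non-dividing cells. In dividing cells it went from 315.5 to 60.6 CPM over these bins. Ccnd2 went from 64.1 to 3.86 CPM and from 22.6 to 3.51 CPM. The part of the span in the smaller ratios was not tested.

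The kinases also differed in dividing cells. Cdk6 fell 5.31-fold with Myog, from 67.8 to 11.98 CPM (log2 -2.41, interval -2.82 to -2.01). Cdk4 stood at 329.9 and 263 CPM, a log2 ratio of -0.32 (interval -0.42 to -0.23), not called under any alternative. Rbl1, the p107 gene, fell from 33.4 to 15.7 CPM (log2 -1.05, interval -1.43 to -0.68). Rbl2 had ratios from -0.92 to 0.14 over the libraries and cannot be given a direction.

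The balance within each family restates these levels as shares of its UMIs. In non-dividing cells Ccnd1 made up 49.2% of D-cyclin UMIs in the lowest Myog bin (interval 47.7% to 50.6%) and 3.03% in the highest (2.42% to 3.74%). Ccnd3 went from 42.6% to 96.7% over the same bins. Summed over the 3 cyclins, the level went from 776 to 439 CPM while its make-up moved to Ccnd3. This lower total is in CPM, where the median gene also had a log2 ratio of -0.38, and the sum was not rescaled. In dividing cells Ccnd1 went from 52.8% to 14.7% between the lowest bin and that of 2000 to 5000 CPM. Within the Rb family Rb1 went from 69.3% to 97.1% in non-dividing cells, and the family sum went from 68.8 to 267 CPM.

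**Figure D3:**
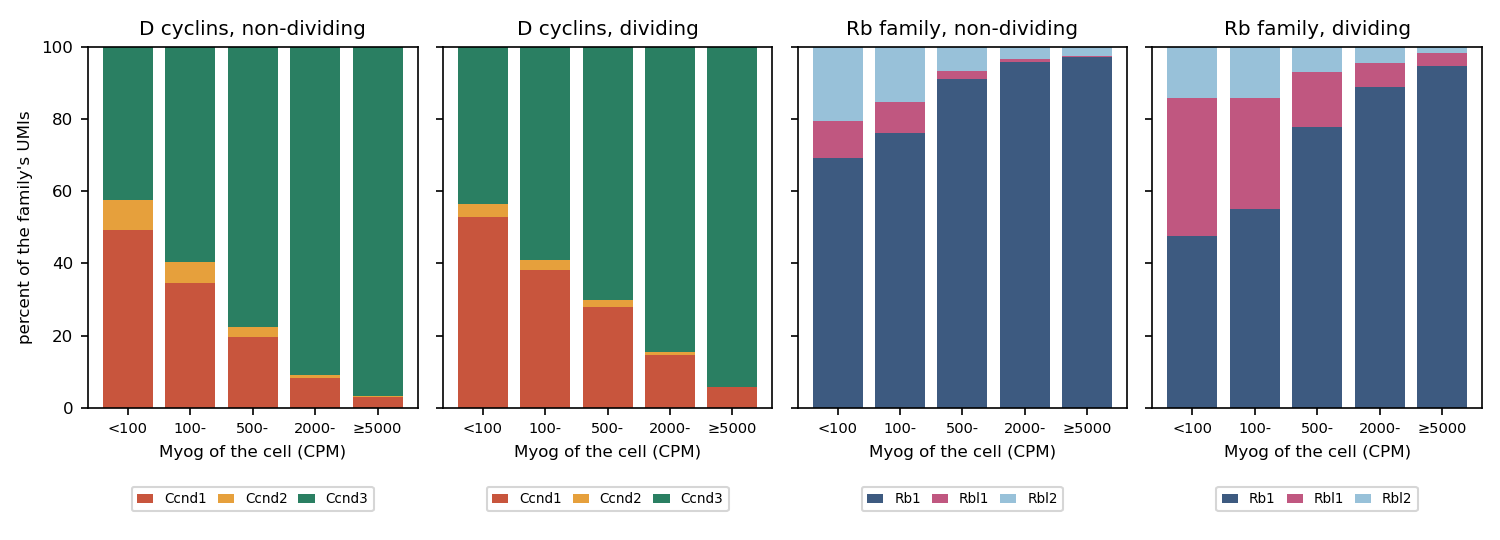
Share of UMIs (percent) that each gene holds within the D cyclins (left pair of panels) and within the Rb family (right pair) by Myog bin, for non-dividing and dividing cells; shares are means of 4 libraries. With Myog the share of Ccnd3 goes up and that of Ccnd1 goes down in both classes. Rbl1 holds 38.3% of Rb-family UMIs in dividing Myog-low cells against 10.3% in non-dividing ones.

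Detection in single cells was read from cells thinned to 5000 UMIs per library, which left out 284 of the 5481 cells. Of non-dividing cells below 100 CPM of Myog, 67.4% had a Ccnd1 UMI and 77.6% had a Ccnd3 UMI, and 52.2% had both (interval 47.9% to 56.4%). From 5000 CPM of Myog, 6.02% had a Ccnd1 UMI, 84.4% a Ccnd3 UMI and 5.37% both. Cells with Ccnd3 and no Ccnd1 UMI went from 25.4% to 79.0%. Both cyclins were detected in 52.2% of Myog-low cells, and Ccnd3 without Ccnd1 in most Myog-high cells. Such joint shares can follow from the separate shares of Ccnd1 and Ccnd3 alone. Whether the cyclins were detected together more or less often than their separate shares give was not tested. Unthinned, the shares with both were 67.4% and 10.3%, at median depths of 8924 and 10221 UMIs.

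**Figure D4:**
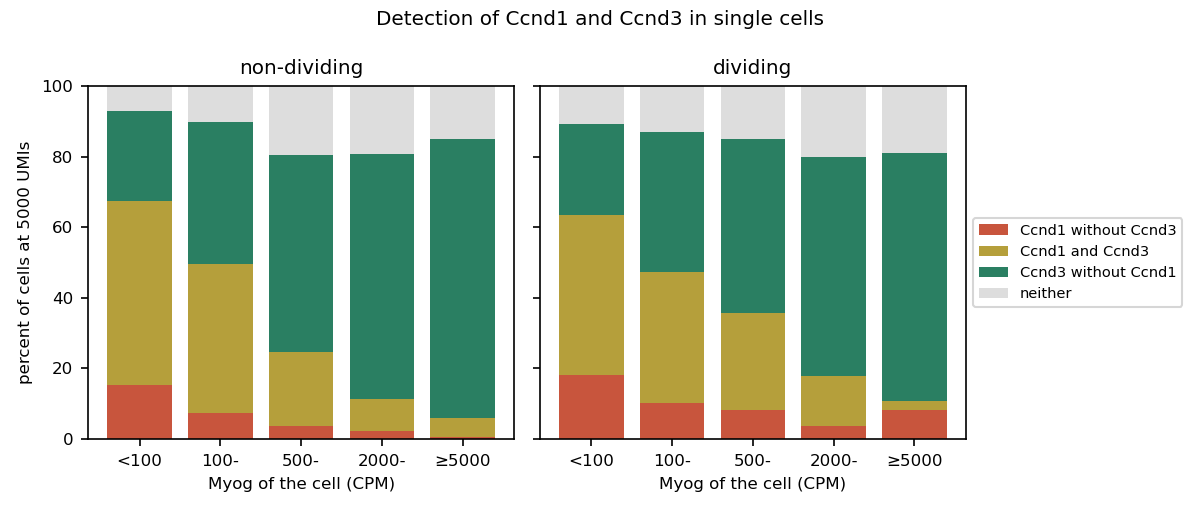
Percent of cells, thinned to 5000 UMIs per library, with UMIs of Ccnd1 only, both Ccnd1 and Ccnd3, Ccnd3 only or neither, by Myog bin and class (means of 4 libraries). Cells with both go from 52.2% to 5.37% in non-dividing cells, and cells with Ccnd3 alone go from 25.4% to 79.0%.

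The share of cells with an Rb1 UMI went from 19.4% (interval 16.2% to 23.0%) to 66.5% (62.5% to 70.4%) over the same non-dividing bins, and from 30.8% to 83.9% unthinned. No cell type that should lack these genes is present, so the part of free RNA in such shares could not be set from these cells. The lowest share a gene reached in a bin bounds it from above. At 5000 UMIs, 0.693% of Myog-high non-dividing cells had a Ccnd2 UMI (interval 0.189% to 1.77%), 0.997% a Cdk6 UMI (0.357% to 2.19%) and 0.477% an Rbl1 UMI (0.0892% to 1.45%). The same bound is loose for the abundant genes, at 6.02% for Ccnd1, 17.3% for Rb1 (dividing cells below 100 CPM of Myog), 44.5% for Cdk4 and 71.2% for Ccnd3. Cells with no D-cyclin UMI at this depth made up 6.30% of Myog-low and 14.9% of Myog-high non-dividing cells. A cell with a UMI of a gene in 1 library had it again in another library in 94.3% of cases for Ccnd3 and in 28.5% for Rbl2, so absence in a single cell is not informative for the rare members.

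To separate the dividing state from differentiation, dividing and non-dividing cells were compared at like Myog. Below 100 CPM of Myog (1111 against 628 cells) Rbl1 was higher and Ccnd2 was lower in dividing cells, and the other 6 members were within 1.5-fold. This is 1 of 8 higher and 1 of 8 lower, against 11.9% and 10.3% of 11020 genes, shares that do not set the 8 genes apart as a set. The median gene had a log2 ratio of -0.03. Malat1, a nuclear RNA, was 6395 CPM in the dividing and 12260 CPM in the non-dividing cells; its part in these differences was not tested.

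Rbl1 stood at 32.1, 34.7, 34.4 and 32.5 CPM in the dividing cells and at 6.81, 5.77, 6.60 and 9.44 CPM in the non-dividing cells. Every dividing value is above every non-dividing one, and the mean ratio was 4.28-fold (log2 2.10, interval 1.68 to 2.51). At 5000 UMIs per cell, 14.7% of dividing and 3.38% of non-dividing cells had an Rbl1 UMI, and 32.3% and 5.85% unthinned. Of Rb-family UMIs, Rbl1 held 38.3% in the dividing cells (interval 35.7% to 41.0%) and 10.3% in the others. Its ratio lay between 1.89 and 2.30 under the 14 alternatives tried.

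Ccnd2 stood at 23.0, 21.4, 23.0 and 23.0 CPM in dividing Myog-low cells, against 70.5, 61.9, 64.8 and 59.4 CPM in the non-dividing. It was thus lower in dividing cells in every library, 2.76-fold (log2 -1.46, interval -1.68 to -1.26), and only 0.590% of genes had a lower ratio or the same. Ccnd1 had ratios of -0.27, -0.29, -0.28 and -0.27, and Ccnd3 of -0.36, -0.36, -0.37 and -0.30, neither called. The log2 ratios of Cdk4 and Cdk6 were 0.31 and 0.41, and those of Rb1 and Rbl2 were -0.19 and -0.17, all under 1.5-fold. Among D cyclins of undifferentiated cells, only Ccnd2 passed the threshold between the classes; differences between the 3 cyclins were not tested.

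The same contrast at Myog of 500 to 2000 CPM (315 dividing against 362 non-dividing cells, Myog 1195 and 1298 CPM) gave Rbl1, Cdk6 and Cdk4 as higher in dividing cells. This is 3 of 8 members higher and 0 lower, against 13.4% and 6.71% of 9280 genes. Rbl1 stood at 23.9 and 4.06 CPM, with ratios of 2.14, 2.36, 2.24 and 2.48. Cdk4 stood at 288 and 181 CPM (log2 0.67, interval 0.54 to 0.79) and Cdk6 at 31.6 and 18.5 CPM (log2 0.74, interval 0.36 to 1.12). Both kinases lie near the threshold: with the Myog boundaries halved their ratios were 0.44 and 0.42 and neither was called, and with cells thinned to 5000 UMIs Cdk6 stood at 0.43.

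Ccnd1 went the other way than among Myog-low cells. It stood at 125, 133, 125 and 136.5 CPM in the dividing and at 85.3, 86.2, 86.7 and 87.3 CPM in the non-dividing cells of this Myog bin. All dividing values are the higher ones, and the log2 ratio of 0.58 (interval 0.40 to 0.77) was just under the threshold. Leaving out replicate 1 or replicate 3 gave 0.597 or 0.602 and a call. Over all 14 alternatives the ratio ran from 0.20 (Myog boundaries halved) to 0.95 (doubled), and 5 of them reached 1.5-fold. The sides also differed in Malat1 (6366 against 12240 CPM) and in Pax7 (48.9 against 23.0 CPM), and the part of either in the result was not tested. Rb1 was 123 and 157 CPM, a log2 ratio of -0.35 that was not called, and Ccnd3 was 325 and 342 CPM.

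Because Mki67 and Top2a mark G2 and mitosis more than early S phase, cells were also split into tertiles of the summed level of 14 replication genes, with edges at 347 and 1260 CPM. In the non-dividing class Rbl1 stood at 1.72, 4.41 and 16.2 CPM in the lowest, middle and highest tertile (1758, 1130 and 127 cells). In the dividing class it stood at 14.5 CPM in the middle and 33.3 CPM in the highest tertile (530 and 1582 cells). At the same tertile Rbl1 was thus higher in dividing cells, in the middle as in the highest one. The 16.2 CPM of the 127 non-dividing cells, near the 14.5 CPM of dividing cells in the middle tertile, rests on 22.25 UMIs per library (interval 10.1 to 24.3). Among the non-dividing cells with Myog below 100 CPM, Ccnd1 stood at 285, 424 and 451 CPM over the tertiles. Ccnd2 was highest in the middle one there, at 54.3, 76.6 and 33.1 CPM.

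Non-dividing cells with Myog of at least 2000 CPM were ordered by their transcripts of Acta1 plus Myh3, the skeletal actin and embryonic myosin genes. Bins with edges at 100, 500, 2000, 5000 and 20000 CPM held 42, 132, 275, 414, 800 and 60 cells. Ccnd1 stood at 56.1, 64.7, 44.9, 34.8, 12.7 and 3.18 CPM from the lowest to the highest bin, and Cdk4 at 245, 215, 185, 152.5, 96.8 and 84.1 CPM. Ccnd3 stood at 314, 346, 358, 385, 389 and 287 CPM over these bins. Rb1 stood at 204.5, 252, 253, 274, 239.9 and 141 CPM. Ccnd1 and Cdk4 went on down after Myog was high, whereas Ccnd3 and Rb1 were near level up to 20000 CPM and had lower values in the last 60 cells. Values in CPM are shares of all UMIs, and by construction of the bins the sarcomere transcripts hold more of them in the last one.

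**Figure D5:**
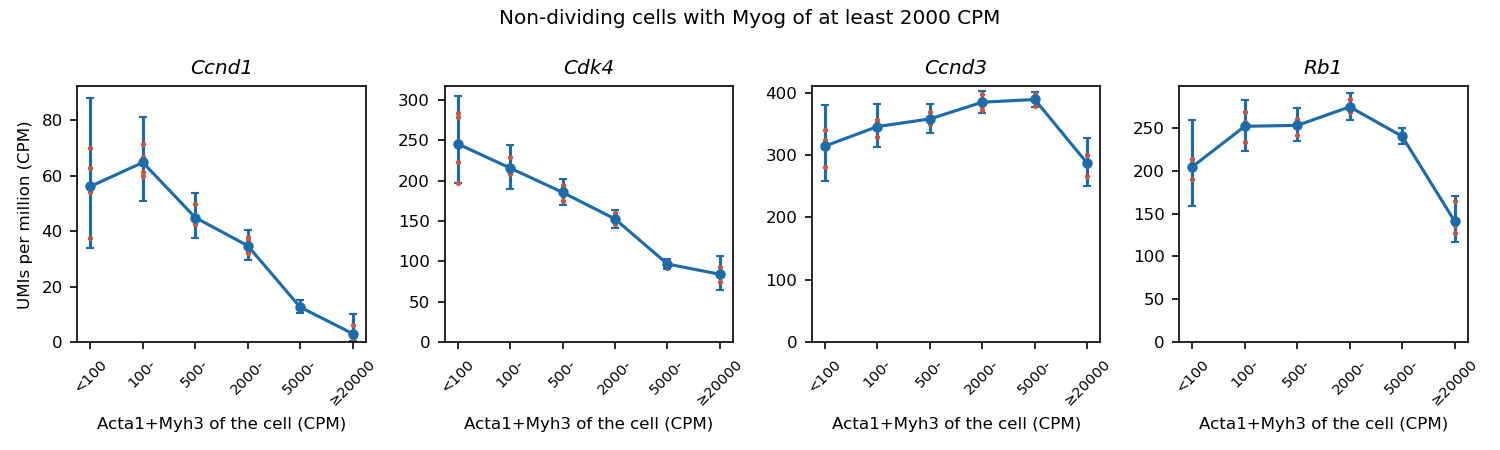
Level (CPM) of Ccnd1, Cdk4, Ccnd3 and Rb1 in 6 bins of Acta1 plus Myh3 among non-dividing cells with Myog of at least 2000 CPM; blue points are means of 4 libraries with 95% Poisson intervals of 1 library, red points single libraries. Ccnd1 goes from 56.1 CPM to 12.7 CPM in the bin of 5000 to 20000 CPM, and its last value of 3.18 CPM rests on 2.5 UMIs per library. Cdk4 goes from 245 to 84.1 CPM, while Ccnd3 stays between 287 and 389 CPM.

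Comparing 860 cells at 5000 CPM or more of Acta1 plus Myh3 with the 42 cells below 100 CPM, Ccnd1 and Cdk4 were lower, 0 members were higher, and 5 members had enough UMIs. Of 8526 genes, 13.3% were higher and 23.6% lower, with a median log2 ratio of -0.19. Ccnd1 had ratios of -1.98, -2.29, -2.48 and -1.64 and Cdk4 of -1.15, -1.52, -1.63 and -1.03 over the libraries. Myog was 4587 and 3307 CPM on the 2 sides. Median depth was 11868 UMIs in the late and 7620 UMIs in the early cells, and the part of depth was not tested. The early side is small: with the Myog boundaries doubled it held 11 cells and the Ccnd1 ratio was 1.67, whereas with early cells taken up to 500 CPM it was -2.29. TMM scaling moved Ccnd3 from 0.28 to 0.74 and Rb1 from 0.19 to 0.65, and both then counted as higher, in a scale where 2289 genes were higher and 770 lower and the median gene stood at 0.25.

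Among the undifferentiated cells, those with at least 100 CPM of Pax7, the satellite cell transcription factor, were set beside those with no Pax7 UMI in any library. In non-dividing cells with Myog below 100 CPM (309 against 88 cells) Ccnd2 stood at 75.7 and 33.5 CPM, a log2 ratio of 1.15 (interval 0.55 to 1.82; 1.11 to 1.19 over the libraries). Rbl2 stood at 17.7 and 3.98 CPM, where the lower value rests on 2.75 UMIs per library (log2 2.04, interval 0.44 to 3.48). Cdk4 went the other way, at 239 and 351 CPM (log2 -0.55, interval -0.77 to -0.34). Cdk6 (log2 0.81, interval 0.15 to 1.46) and Rb1 (0.68, interval 0.04 to 1.30) were on the same side as Ccnd2. In dividing cells below the same Myog level (521 against 83 cells) Ccnd2 was 18.2 and 22.7 CPM, with an interval from -0.98 to 0.42 that includes 0. Rbl1 was 37.9 and 21.9 CPM in those cells (log2 0.78, interval 0.11 to 1.49). Rb1 had a log2 ratio of 0.64 there (interval 0.05 to 1.19) and Cdk4 of -0.28 (interval -0.45 to -0.11). The log2 ratios of Ccnd1 and Ccnd3 lay between -0.25 and 0.18 in both classes, and no difference between the classes was tested. Malat1 and depth were not compared between the Pax7 sides, and no share over all genes was computed for them. Several of these members also differed between Malat1-poor and other non-dividing Myog-low cells, as given below, and the part of Malat1 was not tested.

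A minority of 467 kept cells had under 1000 CPM of Malat1, and several members differed there. The median gene examined had a log2 ratio of -0.49 in Malat1-poor over other cells at low Myog and -0.26 at high Myog, both non-dividing. In non-dividing Myog-low cells Rb1 stood at 6.996 CPM (interval 1.72 to 19.3, on 3.5 UMIs per library) in the 65 Malat1-poor and at 51.3 CPM in the 563 other cells. In Myog-high cells it stood at 77.3 and 272 CPM (49 and 551 cells), 3.58-fold lower in the Malat1-poor. Cdk4 and Ccnd3 were on the other side: Cdk4 was 457.5 and 249 CPM and Ccnd3 462 and 318 CPM in the Myog-low cells. Cdk6 was 17.0 and 54.1 CPM in those cells. Ccnd1 had a log2 ratio of -0.22 (interval -0.46 to 0.01) at low Myog and of 1.14 (0.22 to 2.04) at high Myog. The rise of Rb1 with Myog was measured in both kinds of cell, with a log2 ratio of 3.41 (interval 1.80 to 4.93) in Malat1-poor and 2.39 (2.20 to 2.57) in other cells. Ccnd1 was likewise lower at high Myog in both, by log2 ratios of -3.51 and -4.88.

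Lists of genes around the pathway were counted in the same way. Besides the highest and lowest gene of each list, the called genes are named after their values were seen. Of 7 inhibitors of the INK4 and CIP/KIP kinds, 2 were higher and 4 lower in Myog-high than in Myog-low non-dividing cells, with a list median of -0.62. The higher ones were Cdkn1c (log2 5.72, from 5.94 to 348 CPM), which encodes p57, and Cdkn1a, which encodes p21. Cdkn2b, the p15 gene, was lowest (log2 -2.69), and Cdkn2a, Cdkn1b and Cdkn2d were lower too. Of 9 E2F and DP genes examined, 3 were higher and 5 lower, with a median of -0.59. E2f8, a repressor E2F, was highest at 3.51, from 5.66 to 74.7 CPM, followed by E2f4 and E2f6. E2f3 was lowest at -1.68, and E2f1, E2f5, Tfdp1 and Tfdp2 were the others lower.

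Of 13 replication genes examined, 0 were higher and 12 lower with Myog, with a median of -2.04 and with Mcm3, a subunit of the replicative helicase, lowest at -3.24. Rrm1, at -0.58, was the gene not called. Of the 7 other cyclins and kinases, Cdk2 was higher (1.12) and 5 were lower: Ccne1, the cyclin E1 gene (-2.40), with Ccne2, Ccna2, Ccnb2 and Cdk1. Of the 5 MuvB genes examined, whose complex joins p130 and p107 in repressing cell cycle genes, 0 were called, with ratios from -0.52 (Lin9) to 0.50 (Rbbp4). Of 7 genes of D-cyclin turnover, 0 were higher and 4 lower (Fbxo4, Fbxo31, Ambra1 and Cul4b), from -1.13 (Fbxo4) to 0.15 (Ddb1). Of 6 Rb-associated chromatin genes, 0 were higher and 4 lower (Suv39h1, Arid4a, Kdm5a and Hdac1), from -1.71 (Suv39h1) to 0.04 (Hdac2). The background of 40.0% lower applies to all of these counts.

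Scaling decided several of these counts. With TMM factors the replication genes kept all 12 lower calls and a median of -1.63, and Cdkn1c, Cdkn1a, E2f8, E2f4, E2f6 and Cdk2 were still higher. The inhibitors then had 2 lower genes, Cdkn2a and Cdkn2b, and the E2F and DP list had 4 higher and 4 lower, with E2f2 added to the higher and Tfdp1 lost from the lower. Ccna2 lost its call among the other cyclins and kinases. D-cyclin turnover went to 1 higher (Ddb1) and 1 lower (Fbxo4), MuvB to 2 higher (Lin37 and Rbbp4), and the Rb-associated genes to 1 lower (Suv39h1). Median-ratio scaling gave the same counts in all 7 lists.

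Dividing and non-dividing Myog-low cells were set apart by Mki67 plus Top2a, so higher cell cycle genes on the dividing side follow from the grouping. The counts below describe these sides, where 11.9% of 11020 genes were higher and 10.3% lower. All 14 replication genes were higher in the dividing, with a median of 1.90 and with Tk1 highest at 3.15 and Cdt1 lowest at 1.05. All 7 other cyclins and kinases were higher too, from 1.33 (Ccne1) to 3.70 (Ccna2). Of 7 MuvB genes and partners, 5 were higher, led by Mybl2 (3.12), and Lin37 was lowest (-0.15); the others higher, named after their values were seen, were Foxm1, Lin54, Lin9 and Lin52. Of 10 E2F and DP genes, 4 were higher, led by E2f7 (3.07) with E2f8, E2f1 and Tfdp1, and Tfdp2 was lowest (-0.35). Of the inhibitors, Cdkn2d (2.01) and Cdkn2c were higher, and Cdkn2b (-0.94), Cdkn2a and Cdkn1a were lower. Of D-cyclin turnover genes 0 were called, from -0.52 (Fbxo4) to 0.13 (Cul4b), and of Rb-associated genes Suv39h1 (1.55) was higher and Kdm5a had the lowest ratio (-0.50). Rbl1, at 2.10, lay inside the range of the replication genes in this comparison, and a link between them was not tested. Scaled by TMM factors, 1587 genes were higher and 874 lower, E2f2 was also called higher, and Cdkn2a and Cdkn1a lost their calls.

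The genes most like each member were taken by Pearson correlation of log2 levels over the 9 groups of at least 30 cells, among 5967 genes of 20 CPM or more. These correlations describe 9 groups that share libraries and a common Myog order. The groups differ in depth, with medians from 8632 to 13770 UMIs per library, and the part of depth was not tested. For Ccnd1 they were Snx24 (r 0.998), Sri and Col5a2, and for Ccnd2 Ostf1 (0.995), Gng11 and Fam114a1. Ccnd3 had the weakest partners, Cgrrf1 (0.953), 4632427E13Rik and Tbca, and its own levels spanned little. Cdk4 was most like Uxs1 (0.995) and Kdelr2, and Cdk6 was most like Por (0.996), Mgat2 and Ly6e. Rb1 was most like Ube2j1 (0.997), Zeb1 and Awat2, and Rbl2 was most like Slc31a1 (0.995), Tnc and Copg1. Rbl1 was most like Rpa1 (0.999), Gmnn and Mcm5, which encode a single-strand DNA binding protein, the licensing inhibitor geminin and a helicase subunit. Between members, Ccnd1 correlated with Cdk6 at 0.985, with Rb1 at -0.934 and with Ccnd3 at -0.669 over these groups.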

How the data were processed

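Droplet 3′ single-cell RNA sequencing of MyoD-KI satellite cell cultures was deposited as 4 filtered matrices of whole-number UMI counts per gene and barcode, as the authors deposited them. The file headers give Cell Ranger 7.1.0 as the software, and the submitters' processing notes name Cell Ranger 3.1.0 and the builds mm10 and GRCm39, with no role given. How intronic reads were counted and how barcodes were called is not given in the sources used here. Of 32285 gene identifiers, 32158 (99.6%) were found in GENCODE M21 (GRCm38), from which gene positions are given.

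Barcodes with at least 1000 genes and less than 10% mitochondrial UMIs were kept, which gave 5481 cells and left out 463 barcodes. Doublets were not called. A cell was placed by its CPM averaged over the 4 libraries, which hold the same cells. The test across samples that had been planned for separate samples was therefore not used, and no p-value is given. Counts were summed per library over each set of cells, turned into CPM and averaged. Ratios are log2 of CPM plus 1, called at 1.5-fold with the same sign in 4 libraries and at least 50 UMIs per library over both sides. Intervals are exact at 95% (Poisson for levels, Clopper-Pearson for shares, conditional binomial for ratios), and a count of 0 allows up to 3 counts. Per-cell shares were taken after thinning to 5000 UMIs. The members, the lists and the bins were chosen with earlier results of these data known. The named genes are the members, the highest and lowest gene of each list in the comparisons of Myog-high with Myog-low non-dividing and of dividing with non-dividing Myog-low cells, and the 3 genes most like each member among genes of at least 20 CPM over groups of at least 30 cells, of which 1 gene is not reported here. In simulated counts with 2-fold changes, between 88% and 100% of changed genes were recovered, and at most 0.0189% of unchanged genes were called, except for 3.06% in the comparison of late with early sarcomere programmes. Changes of the called size of 1.5-fold were not simulated, and variation between cultures or animals is not covered by these shares. Alternatives were TMM and median-ratio scaling, means of single-cell CPM, a stricter cell filter, other boundaries, cells placed from libraries 1 and 2 with levels from 3 and 4, Malat1-poor cells left out, thinned cells, no count minimum and each library left out. Early cells below 500 CPM of Acta1 plus Myh3 were added after seeing the data. R 4.3.3 with edgeR 4.0.16 gave the scaling factors, and Python 3.11.15 with numpy 2.4.6, scipy 1.17.1, pandas 2.3.3 and matplotlib 3.10.9 gave the rest.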

Additional observations from a re-analysis of the deposited data

Results flagged for a closer look

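The log2 ratio of Rbl2 between Myog-high and Myog-low non-dividing cells was -1.30 in replicate 4, apart from the other libraries, whose median was -0.82. Its gap to the next value was 0.843 of the whole range, above Dixon's 95% critical value for 4 values. It is 1 of 48 sets of 4 values examined, and chance gives such a gap in about 1 in 20. Without replicate 4 the call of Rbl2 as lower remained.

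Ccnd1 had a log2 ratio of -0.27 between dividing and non-dividing cells below 100 CPM of Myog and of 0.58 between those at 500 to 2000 CPM. All 4 libraries were negative in the first and positive in the second comparison, and neither ratio reached the called size. Over 14 alternatives the second ratio ran from 0.20 to 0.95. The difference between both was not tested.

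The 463 barcodes left out by the filters on genes and mitochondrial UMIs also held UMIs of all 8 genes, with mean levels above the 3.68 CPM that a count of 0 allows there. Rb1 stood at 270.6 CPM and Ccnd3 at 172 CPM in them. Cdk6 stood at 67.9 CPM, Cdk4 at 49.97 CPM and Ccnd1 at 41.9 CPM. Rbl1 stood at 19.5 CPM, Rbl2 at 13.1 CPM and Ccnd2 at 6.18 CPM. The value of Ccnd2 rests on 5 UMIs per library, its interval of 1.99 to 14.3 CPM includes that limit, and 2 of 4 libraries lay below it.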

How the results depend on the processing

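Of 568 values of single members under other settings, 510 lay within the interval of the reported value and 58 outside it, and 17 had the other sign. Of these 17, 1 was a called ratio: Ccnd1 between late and early sarcomere programmes, at 1.67 with Myog boundaries doubled, where the early side held 11 cells. Under the same setting Cdk6 went from -1.63 to 1.91 and Rbl1 from -0.61 to 1.08, neither called in the first place, and Ccnd2 between dividing and non-dividing cells at Myog of 500 to 2000 CPM went from -0.47 to 0.29. The other 13 lay within the interval, for Rbl2 in 8, Rb1 in 4 and Rbl1 in 1.

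With Myog in non-dividing cells, 2 members were higher under TMM factors, median-ratio factors and doubled boundaries (19 against 782 cells), where Ccnd3 joined Rb1. Genes higher numbered 2346, 2443 and 830 under these, and genes lower 2484 with TMM, 2431 with median-ratio factors, 2574 in thinned cells and 6146 without a count minimum. In dividing cells 1529 genes were higher without a minimum. Between dividing and non-dividing Myog-low cells, 643 genes were lower in thinned cells. At Myog of 500 to 2000 CPM, 1 member was higher in thinned cells and with boundaries halved. There 1 member, Ccnd2, was lower with boundaries halved, with classes at 25 and 300 CPM and with cells placed from libraries 1 and 2. In that comparison 731 genes were higher in thinned cells and 1186 lower without a minimum. For late against early sarcomere programmes, 2 members were higher with TMM and 1 with median-ratio factors. In that comparison 1 was lower in thinned cells and with boundaries doubled, and 4 were lower with boundaries halved. Genes higher numbered 2289 with TMM, 1882 with median-ratio factors and 2184 without a minimum; genes lower numbered 770, 970, 1124 in thinned cells and 1096 with boundaries doubled. More genes pass without a minimum and fewer in thinned cells by construction; the cause of the other changes was not tested.

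Shares of kept cells with a UMI moved with depth. Unthinned and at 3000 UMIs, they were 49.6% and 27.7% for Ccnd1, 11.4% and 3.99% for Ccnd2, 92.7% and 60.9% for Ccnd3, 84.4% and 48.9% for Cdk4, 21.6% and 7.09% for Cdk6, 58.5% and 28.4% for Rb1, 13.7% and 3.88% for Rbl1 and 11.9% and 3.21% for Rbl2.

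No paired analysis was possible because there is 1 group. Depth limits Rbl1, Rbl2, Ccnd2 and Cdk6 most, and nothing here measures variation between cultures or animals.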
